A study of Mus musculus with 6 samples.

Results

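Mouse embryonic fibroblasts of genotype Per2m/m that had received a vector expressing H-Ras and SV40T were compared with Per2m/m fibroblasts that had received a mock, with 1 Agilent single-colour array on each side. These were the 2 samples of the series whose titles name Per2, out of 6 samples in all. The other 4 were transfected and mock fibroblasts of wild type and of Clk/Clk genotype (Clock mutant, by the design text), with 1 array each. By the labels all cultures were of strain ICR, were kept in medium with fetal bovine serum and gave total RNA, and the labels name no clone, passage, promoter or time after transfection. For the transfected Per2m/m cells the source name gives H-Ras without SV40, while the transfection label gives both.

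Fibroblasts are connective tissue cells that secrete collagen matrix and, on stiff plastic, build contractile actin bundles under the control of serum response factor (SRF) and YAP. PER2 is a repressor of the circadian clock, a loop in which CLOCK and BMAL1 drive the genes of their own repressors. H-Ras relays growth factor signals to the ERK kinases and is oncogenic when activated, and SV40 T antigen binds and disables p53 and the RB family. The title of the series ties a faulty Per2 in oncogenic cells to Aldh3a1, an aldehyde dehydrogenase that can destroy reactive aldehydes and some drugs.

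Every value below is a level, which is log2 of the processed signal of a gene's probe over the 75th percentile of its array, or a response, which is the level on the transfected array minus the level on the mock array. Each side of the Per2m/m comparison was a single array, so no response has a replicate check or a test of its own, and genes were counted by size. Repeated spots of the same probe had a median SD of 0.05 on the transfected array and 0.06 on the mock array (log2), which covers spot noise only. Between different probes of a gene the responses had a median SD of 0.28, over genes well above background on both Per2m/m arrays. A ratio was read only where the brighter array was well above background. Where the dimmer array was not, the ratio is given as at least N-fold, against the lowest level called well above background on that array.

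The array of transfected Per2m/m cells correlated less with the other 5 across genes (0.854 to 0.892) than these did with each other (0.928 to 0.981). Every result below rests on it, so none could be computed without it. It had 49.3% of its spots well above background, against 54.3% on the mock Per2m/m array and 53.5% to 57.2% on the other 4. Xist, the RNA that coats an inactive X chromosome, had a level of −6.18 on the transfected and −0.53 on the mock array. The Y-linked genes Ddx3y and Eif2s3y had levels of −6.74 and −6.85 on the transfected array, against −0.05 and −0.81 on the mock array. All 3 were not well above background in the transfected cells, at least 16.7-fold, 23.3-fold and 13.8-fold below the mock cells. On the transfected and mock Clk/Clk arrays Xist was not well above background either (−6.63 and −6.79), while in wild type cells it stood at −0.95 and −1.02. Ddx3y and Eif2s3y were well above background on all 4 arrays of those genotypes. The labels do not give the sex of the embryos. Both Per2m/m arrays lay in another row of the slide than the other 4.

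Of 15809 genes with a readable ratio, 3205 (20.3%) had a 2-fold or larger ratio in favour of transfected over mock Per2m/m cells, and 3546 (22.4%) a ratio as large the other way. At 4-fold or more 1186 were higher (7.5%) and 2255 lower (14.3%), and at 16-fold or more 299 were higher and 995 lower. The responses had a median of 0.11 and an SD of 2.14, and 6014 genes lay within 1.5-fold. In wild type cells 1281 genes (7.97%) were higher and 2048 (12.7%) lower at 2-fold, and 248 (1.54%) higher and 856 (5.32%) lower at 4-fold (SD 1.13). In Clk/Clk cells 645 genes (4.21%) were higher and 721 (4.7%) lower at 2-fold, and 157 (1.02%) higher and 158 (1.03%) lower at 4-fold (SD 0.67). Of the kept genes 693 cleared the background of the transfected Per2m/m array alone and 2048 that of the mock array alone, so more lower than higher calls rest on a dim array. Counts use the measured signals, and with each dim side set at its bound they became 3062 higher and 3065 lower. Over the 13106 genes well above background on both Per2m/m arrays 2563 were higher and 1784 lower, so 59.0% of the calls were higher, against 47.5% over all readable genes. Over genes well above background on all 6 arrays the share was 57.8%. Scaling each array to its median moved the median of all genes to 0.34, and taking the percentile over detected probes moved it to −0.05, so responses are read relative to 0.11. Of 446 genes read by several probes with at least 4-fold responses, all probes lay on the same side of 0 in 406 (91.0%).

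The genes furthest apart on arrays that both read them are given first. Slpi, a secreted inhibitor of leukocyte proteases (chr2:164179849-164179908, mm9), stood at 7.34 on the transfected and −3.80 on the mock array, a 2260-fold ratio. Its levels were −3.99 and −0.71 on the transfected and mock wild type arrays and −0.17 and −3.84 on the transfected and mock Clk/Clk arrays, so only 1 of the 6 arrays was bright. Rhox5, a homeobox gene of testis and epididymis on the X chromosome, stood at 8.91 and −1.59 in transfected and mock Per2m/m cells, 1450-fold apart. Next came Cdsn, an adhesion protein of cornified skin (6.22 against −2.21), Itgb7, an integrin subunit of lymphocytes (5.54 against −2.55), Xdh, which makes uric acid (2.92 against −4.78), and Blnk, an adaptor of the B cell receptor (4.22 against −3.37). Aqp5, a water channel of glands, was at 6.48 against −0.33, and Krt14, a keratin of basal epidermis, at 2.57 against −4.12.

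Cnn1, the calponin of smooth muscle, which binds actin (chr9:21913058-21913117, mm9), stood at the other end, with −2.99 on the transfected and 7.93 on the mock Per2m/m array, 1940-fold apart. Its level was between 7.25 and 7.64 on the other 4 arrays, so the transfected Per2m/m array alone was dim. Hspb1, a small heat shock protein that binds actin, had levels of −2.86 and 7.81 in transfected and mock Per2m/m cells. Lrrc32, which holds latent TGF-beta at the cell surface, had −3.41 and 6.47, Cyba, a subunit of NADPH oxidase, −3.89 and 5.73, and Cck, a peptide hormone, −3.35 and 6.30. The plot of the genes furthest apart shows 12 genes on each side, with the dimmer array below 0 for every one, nearest to 0 for Aqp5 (−0.33) and Myl9 (−0.86).

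**Figure D1:**
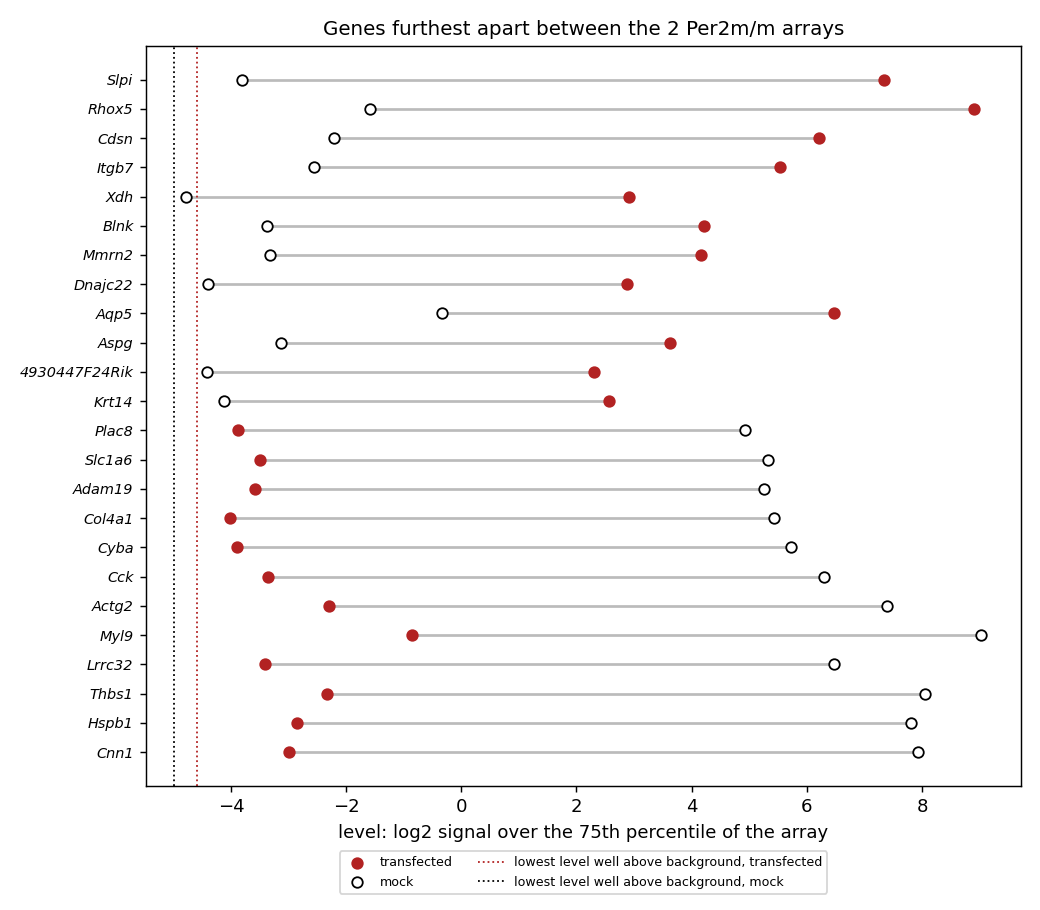
Levels (log2 over the 75th percentile of the array, x axis) of the 12 genes with the highest and the 12 with the lowest response among genes well above background on both Per2m/m arrays, with all probes of the gene on the same side of 0. Filled points are the transfected and open points the mock array, and dotted lines mark the lowest level called well above background on each. Slpi, at 7.34 against −3.80, is the top row and Cnn1, at −2.99 against 7.93, the bottom row.

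Several genes were measured on only 1 of the 2 arrays. The transfected array alone read Slurp1, a secreted protein of skin (at least 453-fold higher), Acox2, a peroxisomal oxidase of bile acid and fatty acid breakdown (222-fold), Oasl1, an interferon-induced gene (219-fold), and Epha8, an ephrin receptor (162-fold). The mock array alone read Loxl2, an enzyme that crosslinks collagen (at least 1720-fold lower in transfected cells), and Lce1i and Lce1g, proteins of the cornified skin envelope (531-fold and 433-fold). The Loxl2 fold rests on 1 of its 3 probes, and its response ran from −11.36 to −4.66 over the processing settings tried. The mock array also alone read Kif1a, an axonal motor (351-fold), and Lama2, a laminin chain (276-fold). Skin genes thus lay on both sides. In wild type cells Loxl2, Lce1i, Lce1g, Kif1a and Lama2 had responses of −3.24, −3.51, −3.83, −7.39 and −2.5, so their direction was shared with wild type cells.

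Counts of list members below are to be read against the 20.3% higher and 22.4% lower over all readable genes. Contractile genes were lower throughout the list. Of the 22 listed, all had a readable ratio, 20 were at least 2-fold lower and 0 at least 2-fold higher, with a median response of −2.95 (−3.18 to −2.24 over the processing settings tried), against 0.11 over all genes. The members ranged from −0.64 to −10.92, the value of Cnn1. Tagln, an actin crosslinker of smooth muscle, stood at 0.75 in transfected and 9.32 in mock cells, and Acta2, smooth muscle actin, at 3.42 and 9.42. Myl9, the regulatory myosin light chain, stood at −0.86 and 9.02. The 2 members within 2-fold were Flna, a filamin that crosslinks actin in many cell types, at 7.45 and 8.40, and Smtn, smoothelin of smooth muscle, at 3.64 and 4.28. Other members that are not specific to muscle were lower by more, among them Cnn2 (−3.44), Actn1 (−2.35), Tpm4 (−2.19) and Myh10 (−2.03). The same list had a median response of −0.39 in wild type cells, with 5 of 22 at least 2-fold lower, and of 0.05 in Clk/Clk cells.

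The regulators of these genes were less uniform. Srf itself had levels of 3.05 and 3.34 in transfected and mock Per2m/m cells, and its coactivators Mrtfa and Mrtfb had responses of −0.64 and 1.03. Myocd, the smooth muscle coactivator, was at least 7.27-fold lower and not well above background in transfected cells. Its measured response in wild type cells was −4.04. Among 11 such regulators 2 were higher and 6 lower, Fhl1, a muscle LIM protein, by at least 69.2-fold. Genes driven by YAP and the TEAD factors had 10 of 12 at least 2-fold lower and 0 higher (median −1.92), with Ccn2, a secreted matrix regulator, at 2.98 and 8.92, Ankrd1 at 1.47 and 5.82 and Ccn1 at 2.78 and 6.49 in transfected and mock cells.

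SRF binds the CArG box, and 3 of the 19 contractile members with a promoter in the RefSeq table (GRCm38.p6) held it on either strand in the 250 bases before the annotated start, against 1.47% of all 32851 promoters. A member counted if any of its promoters held the box, while the 1.47% counts each promoter by itself, so these shares are unlike measures. The promoters of Myl9 (chr2:156775278-156775337, plus strand), Cnn2 (chr10:79988519-79988578, plus strand) and Vcl (chr14:20929148-20929207, plus strand) are shown because they hold it, with the box in capitals, 161, 56 and 227 bases before the start.
Myl9: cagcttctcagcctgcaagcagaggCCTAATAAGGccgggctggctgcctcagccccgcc
Cnn2: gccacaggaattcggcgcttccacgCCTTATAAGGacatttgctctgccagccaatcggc
Vcl: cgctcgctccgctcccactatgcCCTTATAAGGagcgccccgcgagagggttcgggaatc
The responses of these 3 genes were −9.87, −3.44 and −1.80. The matches are a description of the sequence, and boxes further upstream or in introns lay outside the window.

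Markers of smooth muscle cells overlap with the contractile list. Their summed signal was 25.2 times the 75th percentile on the transfected and 1760 times on the mock Per2m/m array, with 6 and 9 of 9 well above background. In bulk RNA fewer cells of a type and less RNA per cell cannot be told apart. Macrophage markers also moved with this comparison, with a sum of 18.0 on the transfected and 58.4 on the mock array and 8 and 16 of 16 well above background. Itgam (3.51 against 5.26) made up most of both sums, and its 3 probes were not all on the same side of 0. Of the 16 markers 14 were at least 2-fold lower and 0 higher. Tyrobp, Ctss, C1qa, C1qc, Adgre1, Ptprc, Laptm5 and Cd53 were not well above background in transfected cells, while Csf1r (0.73 against 2.12) and Cd14 (1.5 against 0.52) were measured in both. The drop in macrophage markers was shared with wild type cells, where they summed to 23.9 (transfected) and 47.6 (mock). Of 14 readable there, 10 were at least 2-fold lower and 1 higher (median −1.69, against −2.27 in Per2m/m cells). On the Clk/Clk arrays the sums were 56.7 (transfected) and 61.2 (mock), with a median response of −0.13. The part of either cell type in the results was not tested.

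Matrix genes were mostly lower, with exceptions among the most abundant. Of 21 collagens 3 were at least 2-fold higher and 10 lower (median −0.81), and of 29 matrix glycoproteins and proteoglycans 2 were higher and 21 lower (median −2.67, −2.83 to −1.91 over settings). In wild type cells 0 of 21 collagens were higher and 10 lower (median −0.77). Of 30 matrix glycoproteins and proteoglycans 3 were higher and 13 lower there (median −0.8). The chains of basement membrane collagen, Col4a1 and Col4a2, had levels of −4.01 and −2.97 in transfected Per2m/m cells, against 5.43 and 5.41 in mock Per2m/m cells. Col4a6, a rarer chain of that collagen, ran the other way, with 3.13 in transfected and −1.27 in mock cells. Col1a2, a chain of the main fibrillar collagen, stood at 9.34 and 8.85 in transfected and mock cells and Fn1, fibronectin, at 9.30 and 8.79, so these abundant transcripts were within 2-fold.

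Thbs1, which binds cells and activates TGF-beta, was at −2.33 in transfected and 8.06 in mock cells, and Postn, a matrix protein of wound and tumour stroma, at −3.54 and 3.70. Tnc, tenascin C, and Nid2, a basement membrane linker, were at least 106-fold and 105-fold lower and were not well above background in transfected cells. Efemp1, a fibulin, was at 5.72 in transfected and 0.88 in mock cells, the highest response in the glycoprotein list (4.84). Of 18 genes that modify or fold collagen, 11 were lower and 0 higher (median −1.77), among them Crtap, part of the prolyl 3-hydroxylase complex, at −2.04 and 5.65. Proteases of the matrix and their inhibitors had 3 higher and 15 lower of 22 (median −2.65, −1.05 at the nearest setting to 0). Timp3, an inhibitor of metalloproteases, stood at −0.38 in transfected and 5.62 in mock cells, and Mmp2, a gelatinase, at 3.42 and 2.06.

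The fibroblast label was checked on 13 markers, and their summed signal was 1570 times the 75th percentile in transfected and 1550 times in mock Per2m/m cells. Within that sum 8 of the 13 were at least 2-fold lower and 1 higher. Vim, the intermediate filament of mesenchymal cells, was at 8.0 and 8.35, S100a4 at 9.10 and 8.26 and Ddr2, a collagen receptor, at 5.03 and 3.65 in transfected and mock cells. Thy1, a surface glycoprotein used to sort fibroblasts, was at −0.65 and 7.11 and Pdpn at 1.24 and 5.27, while Fap, a protease of activated fibroblasts, was at least 20.2-fold lower and not well above background in transfected cells. The markers thus split, some near or above their mock level and others far below it. Thy1, Pdpn and Fap had measured responses of −3.34, −1.04 and −6.82 in wild type cells, so their direction was shared there.

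Transcription factors of mesenchyme split in the same way, with 5 of 29 higher and 16 lower (median −1.30, and 0.13 over the members well above background on both arrays). Twist1, Snai2 and Runx1 had responses of 0.49, 1.29 and 0.53, while Meox2, Ebf2, Six2 and Foxf1 were at least 35.4-fold, 45.9-fold, 28.0-fold and 24.9-fold lower. Of 27 listed secreted or luminal products of epithelia, 15 were kept and 11 of these were at least 2-fold higher and 2 lower (median 2.39, 0.40 to 3.81 over settings), besides Slpi and Aqp5 also Msln, mesothelin, at 5.06 and 0.30, Clu, clusterin, at 3.47 and −0.48, and Aqp1, another water channel, at 6.57 and 2.76. The adhesion and identity genes of epithelia did not follow them as a group. Of 16 readable junction genes 2 were higher and 6 lower, with Cdh1, E-cadherin, at −3.29 in transfected cells and not well above background in mock cells, at least 3.23-fold apart. Keratins had 3 higher and 6 lower of 11, with Krt14 and Krt8 higher and Krt19, Krt7 and Krt18 at least 88.1-fold, 22.9-fold and 16-fold lower. Epithelial regulators had 6 higher and 4 lower of 15 (median 0.06). Klf4 (6.12 against 2.72), Tfap2a (1.67 against −3.16) and Sox9 (2.68 against −1.66) were among those higher in transfected cells. Foxa1, Esrp2, Emx2 and Gata3 were lower.

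**Figure D2:**
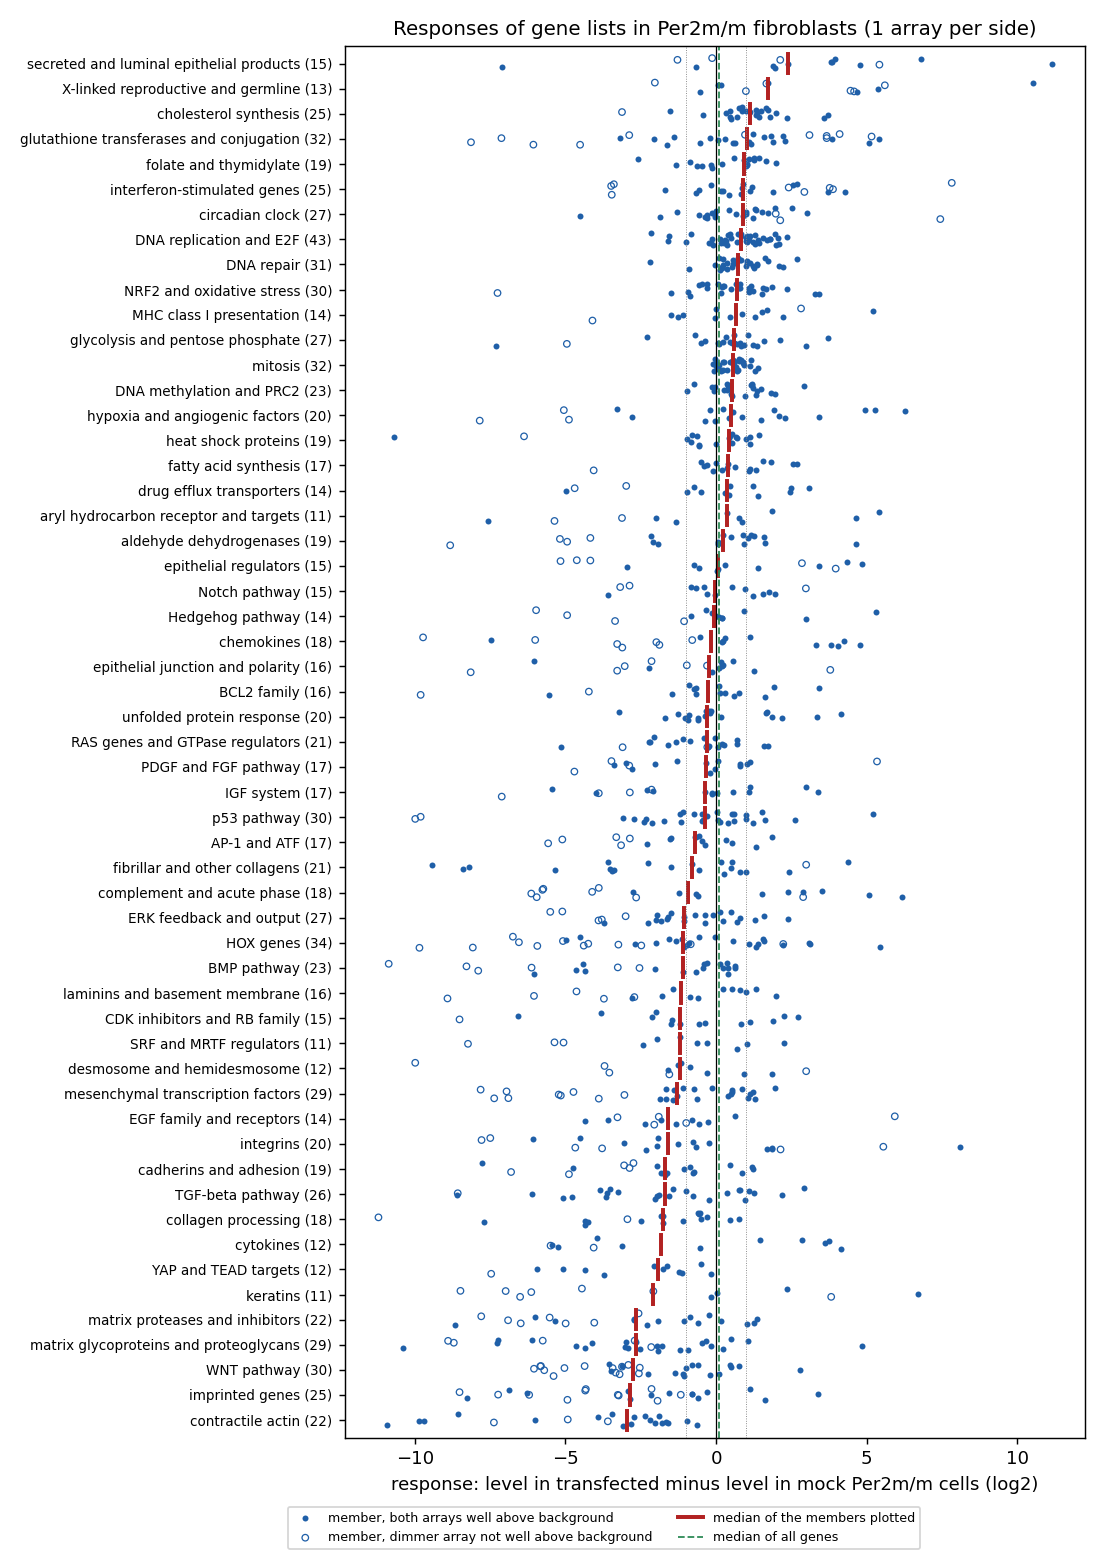
Responses (log2, transfected minus mock Per2m/m, x axis) of the members of 55 gene lists, all but the sex-linked, with a readable ratio, whose number stands in brackets. Filled points have both arrays well above background, open points only the brighter, red bars are list medians and the dashed line is the median of all genes (0.11). Secreted epithelial products stand at the top (2.39) and contractile actin genes at the bottom (−2.95).

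Genes of the transfected pathway were read next. Hras, read at chr7:148377296-148377355 (mm9), had levels of 3.16 and 4.49 in transfected and mock Per2m/m cells, 2.51-fold lower, and its responses in wild type and Clk/Clk cells were −0.17 and 0.64. Neither the species of the vector's H-Ras nor a probe for SV40T was known, and the transfection was therefore not checked. Nras had levels of 2.37 and 2.65 in transfected and mock Per2m/m cells, and Mras, a relative of it, of 4.04 and 2.45. Of 27 readable genes that ERK signalling induces, including its feedback inhibitors, 3 were at least 2-fold higher and 15 lower in Per2m/m cells (median −1.07, −1.30 to −0.54 over settings). The same list had medians of 0.40 (wild type) and 0.38 (Clk/Clk).

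Egr1, an immediate early factor, stood at 0.41 in transfected and 4.13 in mock Per2m/m cells, and Fos was at least 22.8-fold lower and not well above background. Etv4 and Etv5, factors that follow ERK activity, were at 1.30 and 1.67 in transfected, against 3.55 and 3.48 in mock cells, and Ccnd1, cyclin D1, at 3.36 against 5.36. Myc (5.04 against 2.65) and the ERK phosphatase gene Dusp4 (3.82 against 2.23) ran the other way, and Dusp6, another ERK phosphatase gene, differed little (3.39 against 3.48). Upstream of RAS, Egfr, the EGF receptor, had levels of −1.74 in transfected and 2.62 in mock cells and all 3 of its probes were lower. Its ligand Hbegf was at 1.32 and 4.89, and Areg at least 2.06-fold lower, while Btc, betacellulin, was at least 12.5-fold higher. Of 14 EGF family genes 1 was higher and 8 were lower (median −1.58, −0.51 at the nearest setting to 0).

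Other growth factor systems differed in how many members were lower. In the PDGF and FGF list 3 of 17 were higher and 8 lower, in the Notch list 5 of 15 and 3, in the Hedgehog list 2 of 14 and 4, and in the IGF system 4 of 17 and 8. TGF-beta genes had 16 of 26 lower and 4 higher (median −1.71). Among the ligands Tgfb2 stood at −1.22 in transfected and 3.86 in mock cells, Tgfb3 at 2.64 and 6.16 and Inhba, an activin chain, at 2.31 and 7.11. Fst, which traps activin, was at −3.89 and 4.70. The signal transducers Smad2, Smad3 and Smad4 had responses of 0.75, 1.27 and 0.79, while the inhibitory Smad6 and Smad7 and the coreceptor Eng had −3.25, −1.55 and −3.64. In the BMP list 12 of 23 were lower and 0 higher (median −1.09, −0.35 at the nearest setting to 0), among them Grem1, an antagonist, at −3.34 and 2.69, the ligand Bmp4, at least 57.8-fold lower, and the targets Id4 (at least 68.3-fold lower) and Id3 (3.85 against 5.86).

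WNT genes had 21 of 30 lower and 1 higher (median −2.74, −0.74 at the nearest setting to 0), and 16 members were well above background on the transfected and 30 on the mock array. Wnt5a, a ligand, was at 1.49 in transfected and 3.76 in mock cells, Rspo3, which amplifies WNT signals, at least 30.8-fold lower, and Lef1, a target and effector, the single higher member, at 3.13 and 0.36. In the IGF system the binding proteins split, with Igfbp6 at 7.67 against 4.68 and Igfbp4 at 2.59 against −0.80 in transfected against mock cells, while Igfbp2 was at −3.93 against 1.5 and Igfbp7 at least 29.3-fold lower. Integrins had 6 higher and 11 lower of 20, the collagen receptor chain Itga11 at −0.48 and 5.60 and Itgb1, the common beta chain, at 3.49 and 5.81. In wild type cells 1 of 20 integrins was higher and 11 lower (median −1.04, against −1.59 in Per2m/m cells).

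Cell cycle inhibitors moved apart from each other. Cdkn2a, which encodes p16INK4a and p19ARF, had levels of −0.12 and 3.71 in transfected and mock Per2m/m cells, and its neighbour Cdkn2b, which encodes p15INK4b, of −4.28 and 2.28. Cdkn2a stood at 5.08 and 4.36 in transfected and mock wild type cells and at 4.29 and 5.78 in transfected and mock Clk/Clk cells, so the transfected Per2m/m array was the lowest of the 6. Cdkn1c, p57, was at least 90.6-fold lower, and Cdkn1a, p21, stood at 2.87 in transfected and 4.99 in mock Per2m/m cells. Cdkn2c, p18, was at 2.46 and −0.28 and Cdkn1b, p27, at 3.71 and 1.83, both higher in transfected cells. Of the 15 CDK inhibitor, cyclin D and RB family genes 4 were higher and 8 lower.

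The p53 list had 5 higher and 11 lower of 30 (median −0.36). Pmaip1 and Perp, mediators of apoptosis, were at least 214-fold and 240-fold lower and not well above background in transfected cells. Gadd45a, a stress gene, was at 5.12 in transfected and −0.08 in mock cells and Ddit4, an inhibitor of mTORC1, at 7.29 and 4.67, so targets of p53 lay on both sides. Trp53 itself stood at 0.35 and −0.05. Replication genes had 19 higher and 4 lower of 43 (median 0.83), and in wild type cells 28 higher and 0 lower of 44 (median 1.08). In Per2m/m cells the licensing factor Cdt1 led at 6.07 against 3.71, while Rrm2, a subunit of ribonucleotide reductase, was at 4.17 against 6.34 and Ccne1, cyclin E1, at 2.48 against 4.06. Mitosis genes had 4 higher and 0 lower of 32 (median 0.57), a smaller share higher than the 20.3% over all genes, and their median in wild type cells was 1.59 with 31 of 33 higher. DNA repair genes had 13 higher and 1 lower of 31, among them Xrcc5, which encodes Ku80 (3.20 against 1.12).

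Per2 was read at chr1:93313046-93313105 (mm9), with levels of −2.82 in transfected and −0.97 in mock Per2m/m cells. The transfected and mock arrays read −2.38 and −3.36 in wild type and −3.88 and −3.91 in Clk/Clk cells, so the mock Per2m/m array was the brightest of the 6. Where the Per2 gene is altered is not in the labels, so the probe checks no label. Of 27 clock genes 11 were at least 2-fold higher and 3 lower (median 0.88, 0.01 to 1.1 over settings). The activators Clock and Arntl (BMAL1) had levels of 0.79 and 2.01 in transfected and 0.35 and 2.03 in mock cells. Among the outputs and repressors Dbp was at 3.97 against 2.24, Nr1d2 at 2.44 against −0.57 and Bhlhe40 at 2.43 against 0.49, while Per1 (1.85 against 1.99) and Cry1 (−3.56 against −3.57) differed little. Arntl2, a relative of Arntl, stood at −3.53 against 0.98.

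CLOCK and BMAL1 bind the E-box CACGTG. Read on either strand, it occurred in the 250 bases before an annotated start in 5 of the 21 clock members with a promoter in the RefSeq table (GRCm38.p6), against 6.02% of all promoters. Here too a member counted through any of its promoters, while the 6.02% counts each promoter by itself, so these shares are unlike measures. Ciart (chr3:95882310-95882369, minus strand), a repressor of the clock, and Cry1 (chr10:85185080-85185139, minus strand) are shown because both hold it and had different responses, with the E-box in capitals.
Ciart: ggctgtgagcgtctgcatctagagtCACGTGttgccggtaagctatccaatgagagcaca
Cry1: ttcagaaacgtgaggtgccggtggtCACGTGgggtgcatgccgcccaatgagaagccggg
Ciart held 3 matches and had levels of −1.45 in transfected and −3.98 in mock cells, a response of 2.52, while Cry1 held 1 match and had a response of 0.01. Of the other members with a match, Bhlhe41, Tef and Per1 had responses of 1.98, 1.29 and −0.15, so members with the E-box lay on either side of the 2-fold mark.

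Aldh3a1, the gene in the title of the series, had a level of 6.53 in transfected and 1.91 in mock Per2m/m cells by its brighter probe, 24.7-fold higher, and between 0.89 and 1.81 on the other 4 arrays. The array carried a second Aldh3a1 probe, and both are shown by their last 30 bases because they share 53 bases and differ at their ends. The probe read above lies at chr11:61031857-61031916 (mm9, NCBI37), from position 1665 of the transcript by the file's annotation, and the second at chr11:61031864-61031920, where 57 of its 60 bases have an mm9 position. Capitals mark the 3 bases past that interval.
A_55_P2101216: gcacagagaccaataaaaaagcctctaaag
A_55_P2065562: gaccaataaaaaagcctctaaagaaaaGTC
The second probe had a level of 6.47 on the transfected Per2m/m array, close to that of the first, while the mock array did not read it above background, which puts them at least 2800-fold apart. On the wild type arrays the probes ran in opposite directions, with a response of −0.63 by the first and at least 12.5-fold higher by the second. The size of the Per2m/m difference therefore depended on the probe and its direction did not.

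The aryl hydrocarbon receptor, which induces Aldh3a1 in other settings, was itself lower. Ahr was not well above background in transfected Per2m/m cells, at least 8.84-fold below mock cells, and Ahrr, its repressor and target, stood at −4.41 against −2.43. Cyp1b1, a classical target, was at −3.77 in transfected and 3.77 in mock cells, 187-fold lower, while Tiparp (3.26 against 1.40) and Ugt1a6b (5.84 against 0.43), also targets, were higher. Cyp1a1 was not well above background on either array. The list had 3 higher and 5 lower of 11 with a readable ratio.

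**Figure D3:**
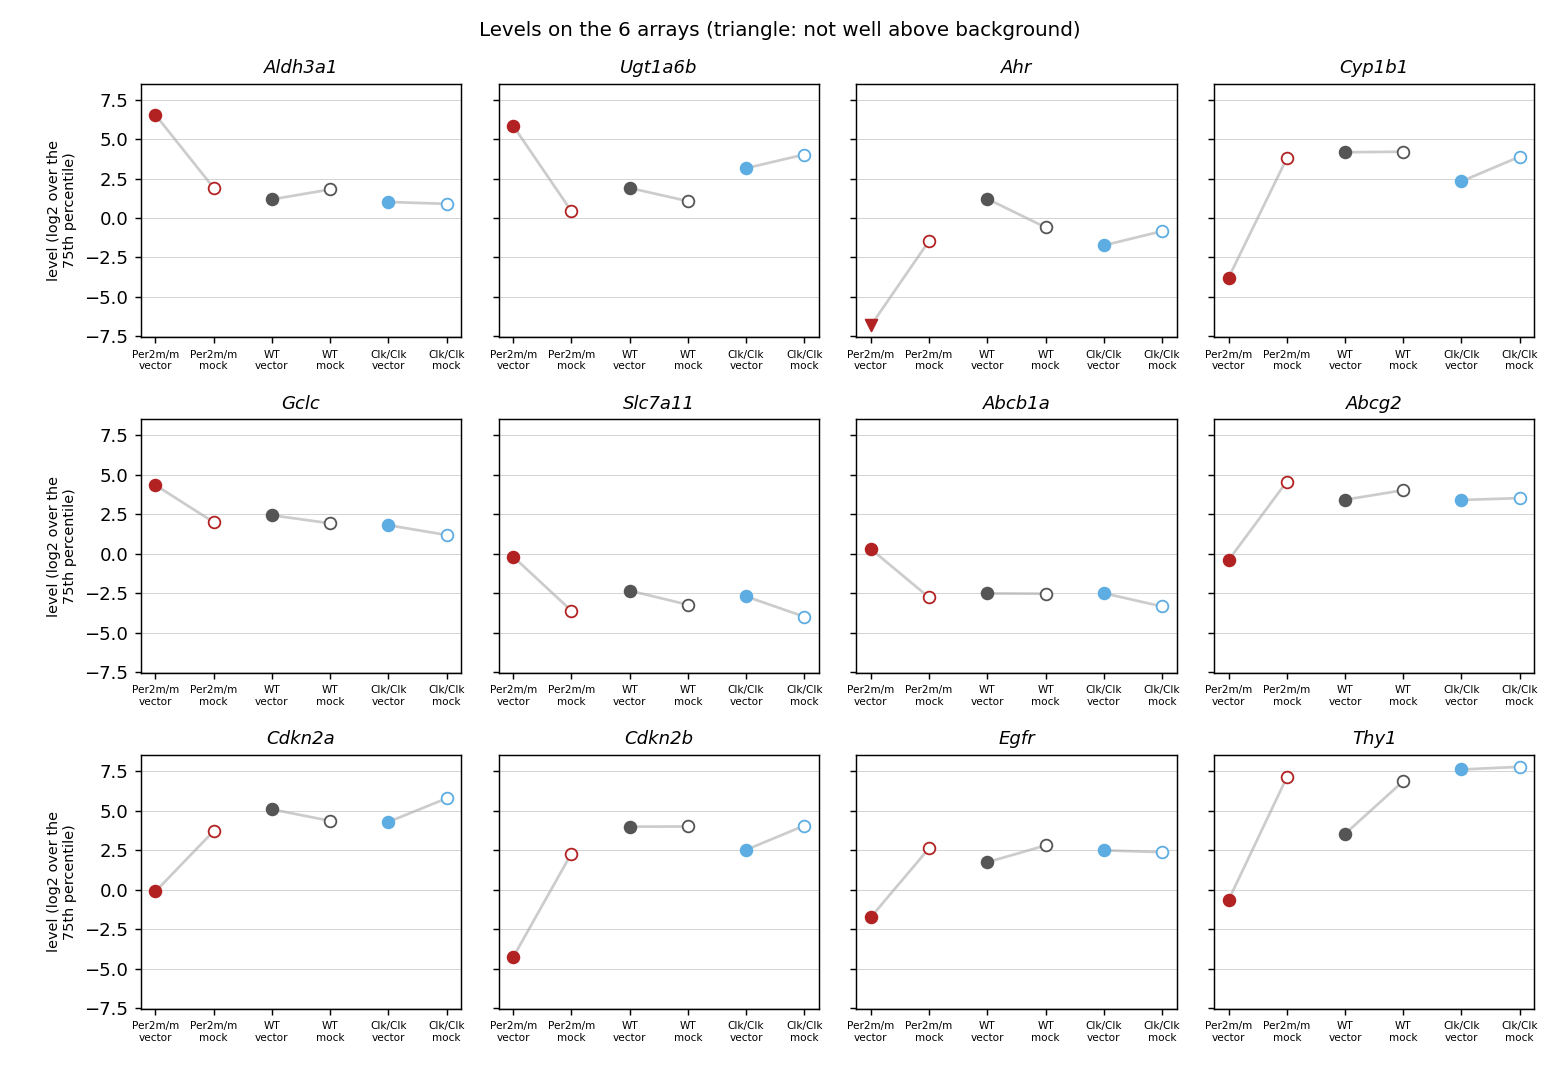
Levels (log2 over the 75th percentile, y axis) of 12 genes on the transfected (filled) and mock (open) arrays of Per2m/m, wild type and Clk/Clk cells, with lines joining the arrays of a genotype and a triangle where the probe was not well above background. Aldh3a1 at 6.53 and Ugt1a6b at 5.84 were brightest, and Ahr, Cyp1b1, Abcg2, Cdkn2a, Cdkn2b, Egfr and Thy1 dimmest, on the transfected Per2m/m array.

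Among genes of oxidant defence, which NRF2 induces, 12 of 30 were higher and 2 lower (median 0.70, 0.43 to 0.93 over settings). Nfe2l2, which encodes NRF2, had levels of 4.83 and 3.26 in transfected and mock Per2m/m cells. Slc7a11, which imports cystine for glutathione synthesis, had levels of −0.18 and −3.60 and Fth1, ferritin heavy chain, of 9.33 and 7.48. Classical targets were less affected, with Nqo1 at 1.87 and 1.12, Hmox1 at 5.42 and 5.26 and Txnrd1 at 5.40 and 5.86. Sod3, the extracellular superoxide dismutase, was at 5.23 and 1.94 and Gpx3, the extracellular glutathione peroxidase, at least 120-fold lower. Conjugating enzymes had 16 higher and 9 lower of 32. Among them the mu transferases Gstm1 (5.43 against 1.58) and Gstm3 (2.51 against 0.63) were higher, and the theta and kappa genes Gstt3 and Gstk1 at least 68.5-fold and 35.8-fold lower. The mu gene Gstm4 had a response of 2.22 that became −1.85 as the mean over its probes, and the theta gene Gstt1 had −4.51 that became 0.33 with a filter on all 6 arrays. The file places the Gstm1 probe on chromosome 5 and those of the other mu genes on chromosome 3. Cross-hybridisation between the near-identical Gstm and Ugt1a6 genes was not tested. Of the multidrug transporters Abcb1a was at 0.30 against −2.77 and Abcg2 at −0.40 against 4.58.

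Metabolic and stress genes gave a mixed picture. Cholesterol synthesis genes had 13 higher and 2 lower of 25 (median 1.13), with Sqle, squalene epoxidase, at 7.47 in transfected and 3.77 in mock cells and Cyp51, a demethylase of the pathway, at 2.88 and −0.70. Slc2a1, the glucose transporter, was at 7.0 and 4.01 and Eno2, an enolase, at 3.48 and −0.25, while Slc16a3, which exports lactate, was at −2.46 and 4.84. Some genes known to respond to hypoxia were high in transfected cells, with Ndrg1 at 7.44 and 1.16, Car9, a carbonic anhydrase, at 2.71 and −2.56 and Bnip3, a mitophagy receptor, at 6.69 and 3.28. Of that list of 20 genes, which also holds angiogenic factors, 8 were higher and 5 lower, and Vegfa (5.61 against 3.51) and Vegfc (at least 102-fold lower) lay on opposite sides.

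Over the unfolded protein response list 6 of 20 were higher and 4 lower. The higher members were Trib3 at 7.65 in transfected and 3.52 in mock cells, Chac1 at 6.71 and 3.37, Ddit3 at 4.02 and 1.81, Atf4 at 8.99 and 7.12, Asns, asparagine synthetase, at 7.98 and 6.33, and Herpud1, a part of the degradation machinery of the endoplasmic reticulum, at 4.87 and 3.17. The lower members were the chaperone genes Dnajb9 (−0.12 against 1.58), Dnajc3 (−1.57 against 1.64) and Calr (5.07 against 6.34) and the secreted factor Manf (4.27 against 5.31). Hspa5, the main chaperone of that compartment, stood at 7.67 and 7.49.

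Interferon-stimulated genes had 12 higher and 4 lower of 25 with a readable ratio (median 0.91), against a median of −1.01 in wild type cells. Isg15, a ubiquitin-like protein, stood at 3.49 in transfected and −0.22 in mock Per2m/m cells, Bst2, which tethers virus particles, at 3.18 and 0.63 and Ifit1 at least 12.6-fold higher, while Irf7 and Rsad2 were not well above background on either array. Psmb9, an immunoproteasome subunit, was at 1.64 and −3.56, and its partner Psmb8 at least 3.95-fold lower. Among the chemokines Ccl5 (0.54 against −4.24) and Cxcl10 (−0.18 against −4.43) were higher and Cxcl12 (−2.06 against 5.40) and Cxcl14 (at least 197-fold) lower, and 1 of the probes of Cxcl10 gave the opposite sign. The cytokines Il6 (−2.20 against 3.25), Il11 (−0.81 against 4.45) and Csf1 (4.10 against 7.22) were lower in transfected cells and Il18 (1.65 against −2.48) and Il34 (2.66 against −1.09) higher. In wild type cells Il6, Il11 and Csf1 had measured responses of −5.28, −3.49 and −0.99, so that direction was shared. Cxcl14 was lower there too (−7.5), while Cxcl12 was not (1.1). Of the complement genes the proteases C1s1 (3.66 against −2.52) and C1ra (3.70 against −1.37) were higher, and C1qa and C1qc, which belong to the macrophage markers above, lower.

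Genes of position and of parental imprinting were lower more often than higher. HOX genes had 10 higher and 18 lower of 34 (median −1.09, −0.31 at the nearest setting to 0). Hoxa2 to Hoxa7 had responses of 3.11, 1.38, 1.60, 1.1, 0.55 and 1.33, whereas Hoxa9, Hoxa10 and Hoxa11 were at least 8.16-fold, 20.9-fold and 16-fold lower. Hoxa10 and Hoxa11 were lower in transfected wild type cells as well, by at least 28.6-fold and 13.8-fold. Hoxc9 was at least 229-fold lower, and Hoxb13, a gene of the tail end, stood at 2.17 in transfected and −3.28 in mock cells. Imprinted genes had 3 higher and 18 lower of 25 (median −2.87, −1.16 at the nearest setting to 0), with Meg3, a maternally expressed RNA, at −2.13 and 6.13 and Ndn, necdin, at −3.79 and 3.09. Dlk1, a paternally expressed gene of the same cluster as Meg3, was at 7.97 in transfected and 4.58 in mock cells. In wild type cells imprinted genes had 2 higher and 15 lower of 24 (median −1.44). Meg3 and Dlk1 had responses of −2.66 and 4.49 there, so the direction of both was shared with wild type cells.

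X-linked reproductive and germline genes had 8 higher and 1 lower of 13 readable members (14 of 36 listed were kept, median 1.73, 0.36 to 1.95 over settings). On the transfected array 12 members were well above background and on the mock array 8. Of the higher members, Xlr3a, Xlr4b, Magea1 and Zscan4c were readable only because the transfected array was bright, so the count leans towards higher. Besides Rhox5, Xlr was at 1.71 in transfected and −3.66 in mock cells, Xlr3b at 2.80 and −1.87, and Zscan4c, a gene of early embryos, at least 14.8-fold higher. Cross-hybridisation among the Xlr genes was not tested. Of 23 genes of DNA methylation and the PRC2 complex 10 were higher and 0 lower, with the methyltransferase Dnmt3b at 1.51 and −1.41 and Uhrf1, which guides maintenance methylation, at 5.68 and 3.71.

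The Per2m/m response was tested against the mean response of the other genotypes in limma, which left 1 residual degree of freedom. That degree of freedom is the difference between the wild type and Clk/Clk responses, moderated over genes, so no SE below measures replicate spread. The Aldh3a1 term uses its brighter probe, with a wild type response of −0.63, while its second probe was at least 12.5-fold higher in transfected wild type cells. After Benjamini-Hochberg adjustment 0 of 17175 genes passed (lowest adjusted p 0.0924), and 1284 genes were higher (7.48%) and 1688 lower (9.83%) at an unadjusted p under 0.05. With an intensity trend in the variance prior 359 genes passed, 45 higher and 314 lower, and with each array scaled to its median 704 passed. On simulated data for 17175 genes the test recovered 0 of 50 changed genes at each of 4 sizes up to 12 on the log2 scale. A count of 0 was thus reached there with true changes present. Far fewer genes were changed there than the 3205 and 3546 at 2-fold in the Per2m/m arrays, and variances were drawn from the fitted prior. The recovery on the measured data is therefore not known. Aldh3a1 exceeded the mean response of the other genotypes by 4.88 ± 0.61 (SE, adjusted p = 0.0983), Rhox5 by 10.23 ± 0.50 (adjusted p = 0.0924) and Ndrg1 by 6.95 ± 0.71 (adjusted p = 0.0927). Cnn1 lay below it by −10.91 ± 0.53 (adjusted p = 0.0924), Cdkn2b by −5.79 ± 0.88 (adjusted p = 0.119) and Egfr by −3.89 ± 0.75 (adjusted p = 0.154). Slpi, with opposite responses in wild type and Clk/Clk cells, had 10.94 ± 3.37 (adjusted p = 0.269).

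By chromosome of the probe, the Per2m/m responses were shifted on 3 chromosomes more than on the rest. The median response was 0.61 over 802 genes on chromosome 17, where 35.7% were at least 2-fold higher and 14.1% lower, and 0.57 over 668 genes on chromosome 15, with 34.7% higher and 16.9% lower. On chromosome 14 it was −0.37 over 548 genes, with 13.3% higher and 35% lower. Chromosomes 1 and 6 both had a median of 0.31, and the other chromosomes except Y lay between −0.01 and 0.17. In wild type cells chromosome 15 had a median of 0.38 and chromosomes 17 and 14 of 0.04 and 0.01, and in Clk/Clk cells the chromosomes except Y lay between −0.20 and 0.13. Chromosomes 17 and 15 were highest and 14 lowest in every processing setting tried. Copy number was not measured, and the genes of a chromosome are not independent replicates.

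**Figure D4:**
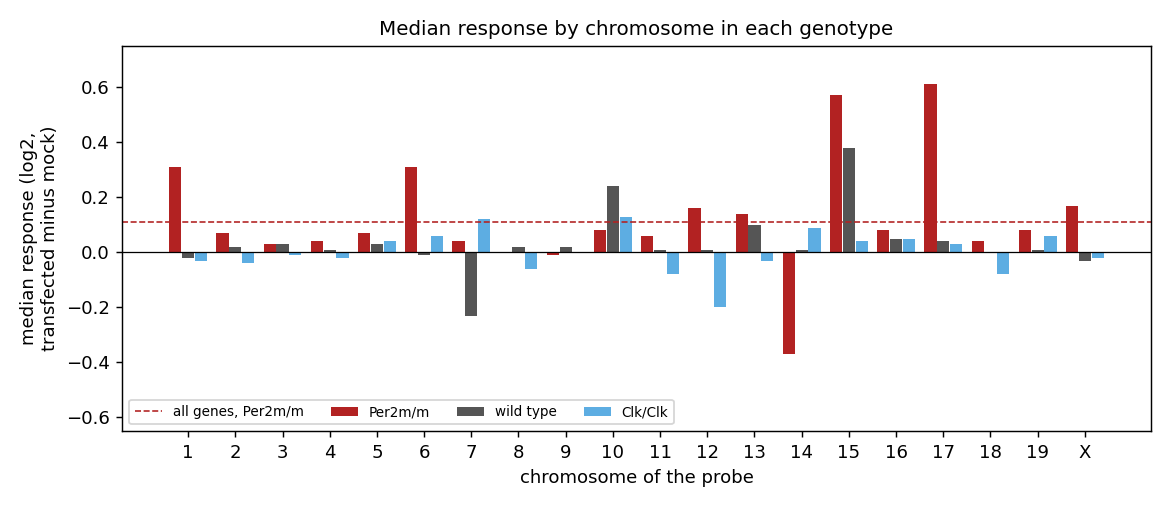
Median response (log2, transfected minus mock, y axis) of the genes on each chromosome in Per2m/m (red), wild type (grey) and Clk/Clk cells (blue), with the median of all genes in Per2m/m cells as a dashed line (0.11). In Per2m/m cells chromosomes 17 (0.61) and 15 (0.57) stand highest and chromosome 14 (−0.37) lowest.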

How the data were processed

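RNA of 6 cultures of mouse embryonic fibroblasts was hybridised to Agilent single-colour arrays (Cy3) on 1 slide in 1 scan. The deposited files hold, per the file headers, spot intensity after background correction by Agilent Feature Extraction 10.7.1.1, while the submitters' processing notes name version 9.5.1.1. The series table of intensity values deposited by the authors correlated with the scanner values at 0.9982 to 0.9999 (log2) and was used as an alternative. No sample column of unknown origin was found.

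From there log2 of the processed signal minus the 75th percentile of the array's non-control spots was taken, leaving out outlier spots (85 to 125 of 59305 an array) and averaging repeated spots. RefSeq accessions named 27310 of 55661 probes, symbols 3523, synonyms 551 and the file alone 890, and 23387 stayed unnamed. The probe with the highest mean level over the arrays stood for a gene, and 17175 of 23175 genes were kept, those with a probe well above background on at least 1 array. The number of arrays limits the precision, and nothing says that cultures were replicated. Samples were grouped by title.

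The 56 gene lists and 19 marker lists were chosen with earlier results of these data known. Genes were named by these rules: the 12 highest and 12 lowest responses with both arrays well above background and all probes on 1 side of 0, the 10 highest and 10 lowest bounds, the 8 genes furthest to each side by the model term, and any member of a list, with Per2, Hras, Aldh3a1 and the sex-linked genes always. From the first rules the text names a part. The Per2m/m-by-transfection term was fitted with limma 3.58.1 (R 4.3.3) and checked on simulated data. Python 3.11.15, pandas 2.3.3 and numpy 2.4.6 did the rest. Alternatives were median, quantile and detected-probe scaling, normexp background correction (offset 50), the deposited series table, the mean over probes, no filter, a filter on all 6 arrays, a variance trend and 2 chosen after seeing the data, the dim side at its bound and both arrays well above background. Sequences come from the probe tables and RefSeq (GRCm38.p6). Some items are not reported here.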

Additional observations from a re-analysis of the deposited data

Results flagged for a closer look

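Several named genes had opposite responses in Per2m/m cells and in another genotype, each from 1 array a side, and these differences were not tested one by one beyond the model given above. Slpi had a Per2m/m response of 11.14 against −3.28 in wild type cells, Blnk 7.59 against −1.65, and Aqp5 6.81 against −1.57. Rpl39l, a ribosomal protein gene of testis, had 5.45 against −8.81 in wild type cells. Hoxb13 had 5.45 in Per2m/m cells, against −5.20 (wild type) and −1.10 (Clk/Clk). The transfected wild type array did not read Rpl39l or Hoxb13 above background (levels of −7.44 and −6.89), so the sizes of their wild type responses are uncertain. Mmrn2, an endothelial matrix protein, had 7.49 in Per2m/m cells, against −1.02 in Clk/Clk cells.

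Among the lower genes Perp had −9.98 in Per2m/m cells, against 2.55 (wild type) and 1.52 (Clk/Clk). Cthrc1, a secreted collagen regulator, had −9.56 against 4.90 in Clk/Clk cells, Cck −9.64 against 1.01, and Lama2 −8.91 against 1.11. The transfected Per2m/m array did not read Perp, Cthrc1 or Lama2 above background, at least 240-fold, 179-fold and 276-fold below the mock array. The mock Clk/Clk array did not read Perp or Cthrc1 above background, so the sizes of their Clk/Clk responses are uncertain.

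Probes without a gene name carried signal too. Of 9869 such probes with a readable ratio, 791 were higher and 855 lower by 4-fold or more in transfected than in mock Per2m/m cells.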

How the results depend on the processing

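No paired analysis was possible because each group has 1 array and all carry the replicate number 1. The count of genes at least 2-fold lower was 2300 with normexp correction, 1742 over genes well above background on all 6 arrays and 1784 over genes well above background on both Per2m/m arrays, the last 2 with fewer genes tested. The limma count, 0 as reported, was 359 with a variance trend, 704 with median scaling, 668 with no filter, 362 with normexp and 356 over genes well above background on all 6 arrays, and 0 with quantile scaling, the deposited series table, the mean over probes and the percentile of detected probes. The cause of these differences was not tested. Of the lists with a range, 12 gene lists and 8 marker lists changed the sign of their median in at least 1 setting. Counting medians of at least 1 in size as reported, the sign turned over members well above background on both arrays for laminins (0.22), mesenchymal transcription factors (0.13), keratins (1.18), cytokines (0.46) and adipocyte markers (2.40), over all 6 arrays for keratins (0.02) and adipocyte markers (2.40), and with no filter for cytokines (0.25) and skeletal muscle markers (0.16). Gstm4 had −1.85 as the mean over probes and Gstt1 0.33 over the filter on all 6 arrays. Medians nearer to 0 that changed sign include complement (−0.94 as reported, up to 1.95), chemokines (−0.16, up to 1.12), Notch (−0.02, up to 0.88), heat shock (0.43, down to −0.13), BCL2 (−0.28, up to 0.11), epithelial junctions (−0.22, up to 0.16), Hedgehog (−0.08, up to 0.15) and epithelial regulators (0.06, down to −0.10), and the markers of chondrocytes and osteoblasts (−0.95, up to 0.56), mesothelium (−0.68, up to 0.33), keratinocytes (−0.92, up to 0.02), simple epithelium (0.04, down to −0.12), kidney tubule (−0.30, up to 0.35) and pluripotent cells (−0.82, up to 0.34). With 1 array a group no value has a replicate error, and signals near background limit the sizes of the largest folds.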

Other observations

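Markers of other cell types that the report does not describe gave these summed signals, in units of the 75th percentile. Mammary and gland markers summed to 327 on the transfected and 21.1 on the mock Per2m/m array, with 4 of 7 at least 2-fold higher and 0 lower, and Slpi, Aqp5 and Pigr made up most of the first sum. Lymphocyte markers summed to 69.7 and 4.10, but only Blnk and Itgb7 were higher, with responses of 7.59 and 8.09, and Cd3e, Cd4, Lck and Cd79a had 0.34, 0.27, 0.07 and −0.20. Mesothelial markers summed to 34.3 and 5.44, mostly through Msln (5.06 against 0.30), while Wt1 and Krt19 were at least 10.5-fold and 88.1-fold lower and the median response was −0.68. Skeletal muscle markers summed to 4.90 and 67.3, with 5 of 7 lower and 2 higher, neural markers to 26.7 and 102, endothelial markers to 11.5 and 25.6 and trophoblast markers to 38.7 and 13.8 on the transfected and mock arrays. Chondrocyte and osteoblast markers gave 78.6 and 58.1, lung 47.0 and 30.1, adipocyte 23.1 and 15.5, keratinocyte 14 and 15.1, simple epithelial 10.5 and 15.2, hepatocyte 4.05 and 5.79, erythroid 1.41 and 0.199, kidney tubule 1.31 and 1.90 and pluripotent markers 0.364 and 0.631. Several sums rested mostly on a single gene, namely Sox5 (chondrocyte and osteoblast), Lamp3 (lung), Gcm1 (trophoblast) and, on the transfected array, Lpl (adipocyte). On the mock array Acta1 made up most of the skeletal muscle sum. Adipocyte markers had a median response of −5.31, with 2 of 5 readable members higher and 3 lower, against the direction of their sum. Chondrocyte and osteoblast markers had a median of −0.95. The part of these cell types in the results was not tested.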
